A study of Neurospora crassa with 2 samples.

Results

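This account covers the genes of Neurospora crassa, a filamentous fungus, whose transcripts were at least 4-fold lower in mycelia without ncw-1. Members had at least 10 RPKM (a read count scaled by gene model length and library depth) in at least 1 of 2 libraries. They also had a log2 ratio of −2 or less, and the 4 deleted genes were left out. The log2 ratio is that of RPKM + 1 in △3βG△ncw-1 over △3βG. The rule took 127 of the 9730 genes in the table, which is 2.12% of the 5988 genes that reached 10 RPKM. These 2 libraries chose the members, so the values below describe them and no difference was tested.

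The △3βG△ncw-1 strain lacks ncw-1, the gene of a non-anchored cell wall protein, and 3 genes of β-glucosidases, named gh1-1, gh3-3 and gh3-4. The △3βG strain lacks the same β-glucosidase genes and keeps ncw-1. The letter a closes the genotype label of each strain. Mycelia of each were grown for 20 h in MM and then held for 4 h in Vogel's salts with 1% cellobiose, the disaccharide of glucose released from cellulose, which β-glucosidases cleave to glucose. Each genotype had 1 library, which leaves every difference without a replicate, and the labels do not say how many cultures or strain isolates each stands for. The level of ncw-1 followed the labels, at 2.62 RPKM in △3βG△ncw-1 and 435 RPKM in △3βG. The β-glucosidase genes were between 0.350 and 3.41 RPKM in △3βG△ncw-1 and between 0.342 and 1.09 RPKM in △3βG. Mating-type transcripts differed between the libraries too. The mat A gene matA-1 had 15.4 RPKM in △3βG△ncw-1 and was listed at 0 in △3βG. The mat a pheromone precursor gene mfa-1 had 35.0 RPKM in △3βG△ncw-1 and 141 RPKM in △3βG. Transcripts of mat A and mat a genes were thus both present in △3βG△ncw-1. Whether the strains differ by more than ncw-1 cannot be told from the labels. The part of these differences in the results below was not tested.

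Neurospora grows as branched hyphae and makes asexual spores, conidia, from aerial hyphae when it meets air, light or hunger. A chain of transcription factors turns hyphae toward conidiophores, and the spores are then coated with a hydrophobic protein layer. The fungus also forms fruiting bodies, perithecia, in its sexual cycle. When sugars run short it makes glucose from smaller carbon compounds through the glyoxylate cycle and gluconeogenesis, and a carbon catabolite repressor keeps such genes low while sugar is plentiful.

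Levels across the 127 members ran from 0.424 to 1746 RPKM in △3βG△ncw-1, with a median of 8.27, and from 10.7 to 60350 RPKM in △3βG, with a median of 66.3. In △3βG 53 had at least 100 RPKM. Of the 767 genes with at least 100 RPKM in △3βG, 6.91% were members. In △3βG△ncw-1 71 members were below 10 RPKM, and these met the minimum only through △3βG, which fixed their direction. None was listed at 0. By the ratio of RPKM itself, 48 members were at least 8-fold lower, 28 at least 16-fold, 15 at least 32-fold and 6 at least 64-fold, with a median of 6.74-fold.

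**Figure D1:**
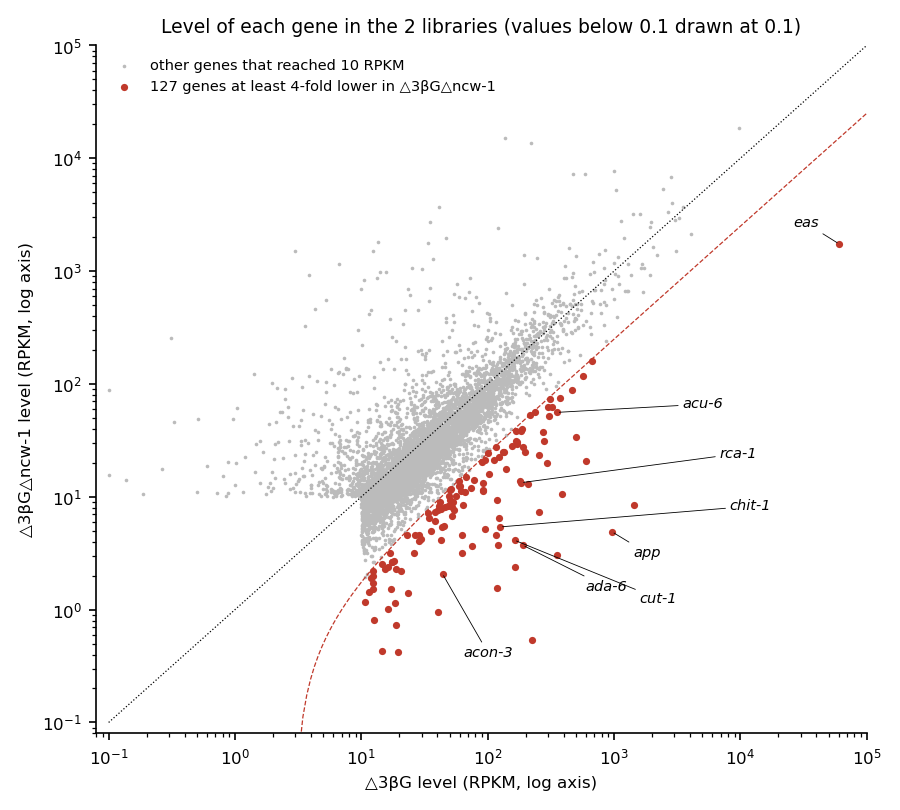
Level of each gene that reached 10 RPKM in the △3βG library (x axis, RPKM, log scale) and the △3βG△ncw-1 library (y axis, RPKM, log scale). Red points are the 127 genes at or below the dashed line, a log2 ratio of −2 with 1 RPKM added; the dotted line marks equal levels, and eas stands alone at 1746 RPKM in △3βG△ncw-1 and 60350 RPKM in △3βG.

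Together the members summed to 3816 RPKM in △3βG△ncw-1 and 77753 RPKM in △3βG, or 0.776% and 16.4% of all RPKM in △3βG△ncw-1 and △3βG. In △3βG most of this came from 1 gene, eas. Without it, the other members made up 0.421% of all RPKM in △3βG△ncw-1 and 3.68% in △3βG. Of the 300 genes with the highest RPKM in each library, 1 was a member in △3βG△ncw-1 and 25 were members in △3βG. Over all genes that reached 10 RPKM, 2.12% were members. The rule chose genes lower in △3βG△ncw-1, so it fixed the direction of these differences in advance.

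Whole reads were recovered from the RPKM values, with library totals of 20019350 reads in △3βG△ncw-1 and 20510798 reads in △3βG. The median member had 283 reads in △3βG△ncw-1 and 2720 reads in △3βG, and 5 members had fewer than 20 reads in △3βG△ncw-1. The 95% intervals given with folds are exact intervals on these reads, and cover counting error only. The lower limit was at or above 4-fold for 118 members, and the lowest of the other 9 was 3.90-fold. The median gene that reached 10 RPKM was itself lower in △3βG△ncw-1, with a log2 ratio of −0.32. Relative to that gene, 90 members were still at −2 or less, and the other 37 were between −2 and −1.68.

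**Figure D2:**
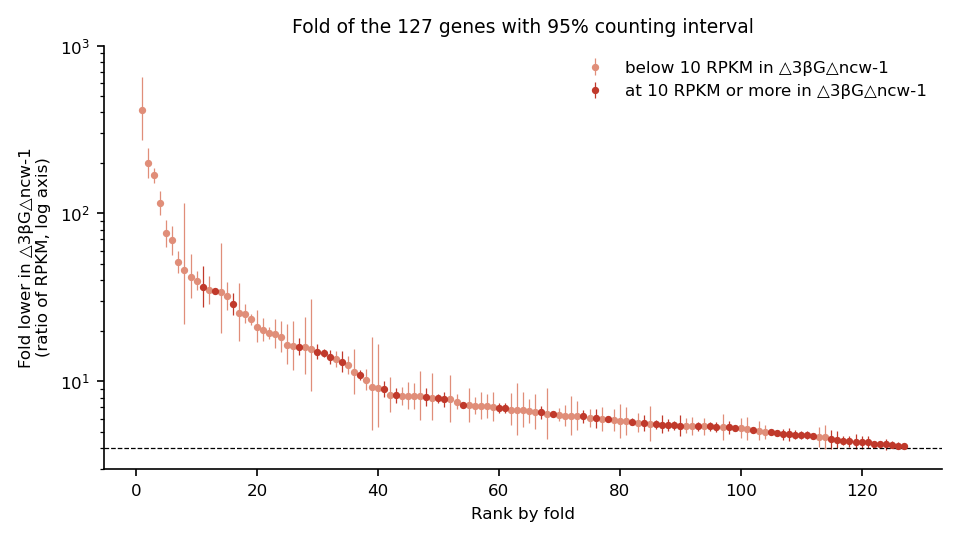
Fold of each of the 127 genes (y axis, ratio of RPKM in △3βG over △3βG△ncw-1, log scale) in rank order (x axis), with bars for the 95% counting interval. Pale points are the 71 genes below 10 RPKM in △3βG△ncw-1; the dashed line is 4-fold, and 6 genes lie above 64-fold.

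Of the 127 members, 18 (14.2%) had a gene symbol in the reference gene table, beside 15.4% of the genes that reached 10 RPKM. The other 109 are known here by locus tag only.

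The largest group with symbols was of conidia and aerial growth. The gene eas (NCU08457, also ccg-2 and bli-7) encodes the hydrophobin of the conidial rodlet layer. It had 1746 RPKM in △3βG△ncw-1 and 60350 RPKM in △3βG, 34.6-fold lower (34.2 to 34.9). It had the highest level of all members in both libraries, and alone took 0.355% of all RPKM in △3βG△ncw-1 and 12.8% in △3βG. The gene of the transcription factor ADA-6 (ada-6, NCU04866) had 3.72 RPKM in △3βG△ncw-1 and 190 RPKM in △3βG, 51.3-fold lower (44.0 to 60.01). The gene acon-3 (NCU07617), needed early in conidiophore formation, had 2.07 RPKM in △3βG△ncw-1 and 43.9 RPKM in △3βG, 21.2-fold lower (17.2 to 26.4). The gene rca-1 (NCU01312, also myb-1) encodes a Myb-type factor related to the Aspergillus conidiation regulator FlbD. It had 13.4 RPKM in △3βG△ncw-1 and 185 RPKM in △3βG, 13.9-fold lower (12.6 to 15.3). The gene sah-1 (NCU04179) is named for the short aerial hyphae of its mutant and had 63.0 RPKM in △3βG△ncw-1 and 321 RPKM in △3βG, 5.10-fold lower (4.92 to 5.29). The levels of these 5 genes differed widely from each other on the per-length scale, with acon-3 the lowest and eas the highest in both libraries.

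**Figure D3:**
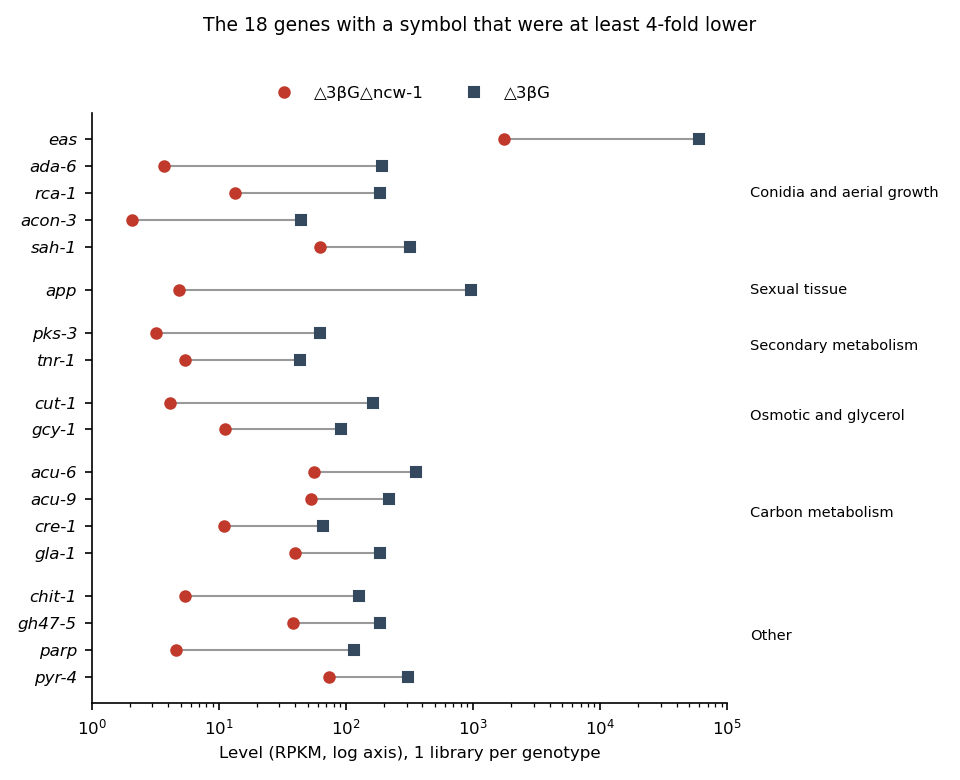
Level of the 18 genes with a symbol (x axis, RPKM, log scale) in △3βG△ncw-1 (red circles) and △3βG (dark squares), 1 library each, grouped by role. The widest gap is that of app, at 4.88 RPKM in △3βG△ncw-1 and 969 RPKM in △3βG.

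The list of conidiation genes is wider than these and leaves out sah-1. Of 17 on the conidiation list 15 reached 10 RPKM, of which 4 were members, 6 were at least 2-fold lower and 0 at least 2-fold higher, while 9 were neither. Over all 5988 genes, 11.1% were at least 2-fold lower and 8.08% at least 2-fold higher. The list's median log2 ratio was −0.68, beside −0.32 over all genes that reached 10 RPKM. The list's other lower genes above the minimum were fl and fld. The zinc cluster factor gene fl (NCU08726) had 11.99 RPKM in △3βG△ncw-1 and 49.9 RPKM in △3βG, a log2 ratio of −1.97 that lay just outside the limit. The gene fld (NCU09739) had 5.84 RPKM in △3βG△ncw-1 and 20.3 RPKM in △3βG.

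The list also holds 4 con genes, named for their expression in conidiating cultures; con-3, another name of acu-6, is a member and is given with carbon metabolism. The gene con-6 (NCU08769) had 157 RPKM in △3βG△ncw-1 and 284 RPKM in △3βG. The gene con-8 (NCU09235) had 514 RPKM in △3βG△ncw-1 and 487 RPKM in △3βG, and con-10 (NCU07325) had 90.002 and 66.1 RPKM in △3βG△ncw-1 and △3βG. The gene con-13 (NCU07324) stayed below the minimum, at 2.25 RPKM in △3βG△ncw-1 and 6.48 RPKM in △3βG. Upstream of acon-3, acon-2 (NCU00478) had 10.4 RPKM in △3βG△ncw-1 and 10.7 RPKM in △3βG. The conidial separation genes csp-1 (NCU02713) and csp-2 (NCU06095) had 44.0 and 30.4 RPKM in △3βG△ncw-1, against 36.5 and 49.2 RPKM in △3βG. The velvet gene ve-1 (NCU01731), Asm-1 (NCU01414) and the corepressor gene rco-1 (NCU06205) were likewise within 2-fold.

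**Figure D4:**
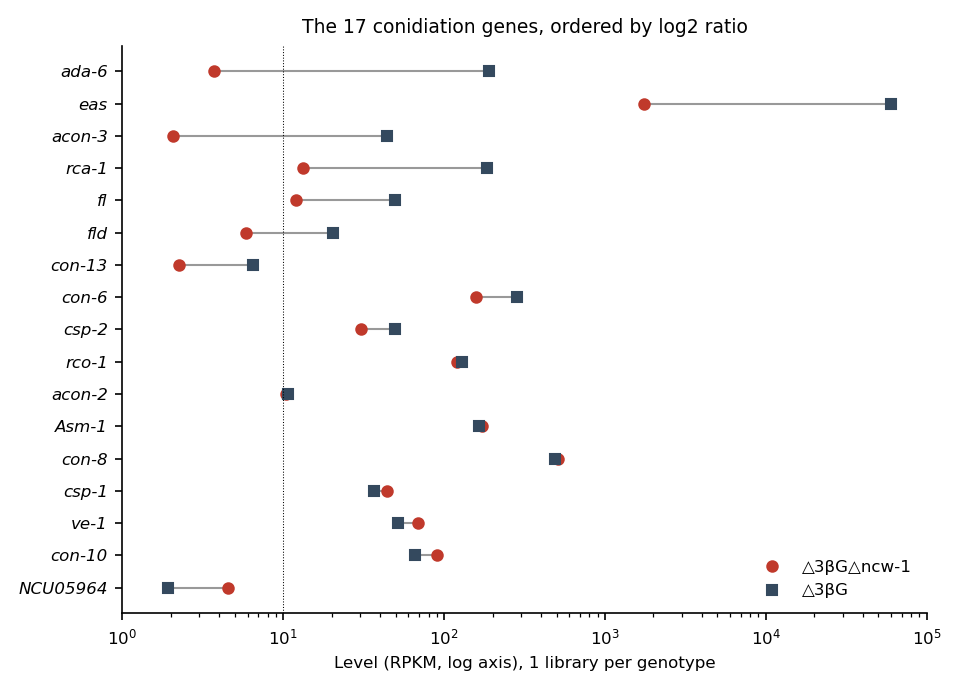
Level of the 17 genes of the conidiation list (x axis, RPKM, log scale; dotted line at 10 RPKM) in △3βG△ncw-1 (red circles) and △3βG (dark squares), 1 library each, ordered by log2 ratio. The uppermost 4 genes, ada-6, eas, acon-3 and rca-1, are at least 4-fold lower in △3βG△ncw-1, while con-8, csp-1 and con-10 are slightly higher there.

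The labelled tissue is mycelium. The 4 genes taken as markers of vegetative hyphae were hex-1, pma-1, Bml and act, and whether they are particular to hyphae was not tested. All were well expressed in both libraries, summing to 4551 RPKM in △3βG△ncw-1 and 5479 RPKM in △3βG. All 7 markers of conidia and conidiophores were above 0 in both libraries. They summed to 2523 RPKM in △3βG△ncw-1 and 61288 RPKM in △3βG, and without eas to 777 RPKM in △3βG△ncw-1 and 938 RPKM in △3βG. In bulk RNA, fewer cells of a type and less RNA per cell cannot be told apart. The 4 markers of sexual tissue were all above 0 and summed to 54.5 RPKM in △3βG△ncw-1 and 976 RPKM in △3βG. Nearly all of the △3βG sum was app, a member. Without it the other 3 summed to 49.6 RPKM in △3βG△ncw-1 and 6.603 RPKM in △3βG. This opposite direction came from asd-1 alone, at 46.1 RPKM in △3βG△ncw-1 and 2.10 RPKM in △3βG. The marker fmf-1 (NCU09387) had 3.30 RPKM in △3βG△ncw-1 and 4.44 RPKM in △3βG, and per-1 had 0.185 and 0.0671 RPKM in △3βG△ncw-1 and △3βG. The part of these cell types in the results was not tested.

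No member had a lower log2 ratio than app (NCU04533), named after a protein that is abundant in perithecia. It had 4.88 RPKM in △3βG△ncw-1, from 93 reads, and 969 RPKM in △3βG, from 18927 reads, so it was 199-fold lower (162 to 246). The reference span of app overlaps that of its neighbour NCU04532, also a member, and reads of the overlap may not be separated. No other gene of the list for sexual development and mating was a member. Among the 7 above the minimum, 2 were at least 2-fold lower (11.1% of all genes were), 2 at least 4-fold higher (3.41%) and 3 neither. The list's median log2 ratio was −0.34, beside −0.32 over all genes that reached 10 RPKM. The other lower gene was mfa-1 (NCU16992), the mat a pheromone precursor gene, with 35.0 RPKM in △3βG△ncw-1 and 141 RPKM in △3βG and a log2 ratio of −1.98, just outside the limit. Both higher genes were low or listed at 0 in △3βG. The gene asd-1 (NCU05598), needed for ascospore development, had 46.1 RPKM in △3βG△ncw-1 and 2.10 RPKM in △3βG. The mat A pheromone precursor gene ccg-4 (NCU02500) had 87.9 RPKM in △3βG△ncw-1 and was listed at 0 in △3βG. The perithecial polyketide synthase gene per-1 (NCU03584) was near 0 in both, at 0.185 RPKM in △3βG△ncw-1 and 0.0671 RPKM in △3βG.

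Genes of secondary metabolism were represented by pks-3 and tnr-1. The polyketide synthase gene pks-3 (NCU04865) had 3.20 RPKM in △3βG△ncw-1 and 62.2 RPKM in △3βG, 19.4-fold lower (17.8 to 21.2). It was the most highly expressed of the 6 genes with a pks symbol in △3βG. Of the others, pks-2 (NCU05011) had 6.70 RPKM in △3βG△ncw-1 and 10.9 RPKM in △3βG, and the remaining 4 were below 10 RPKM in both libraries. The gene tnr-1 (NCU09390), named for a tetrahydroxynaphthalene reductase of melanin synthesis, had 5.38 RPKM in △3βG△ncw-1 and 43.8 RPKM in △3βG, 8.15-fold lower (6.81 to 9.80).

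A pair linked to osmotic stress and glycerol lay next to each other on chromosome IV. The gene cut-1 (NCU04924, also ovc), whose loss makes Neurospora sensitive to osmotic stress, had 4.12 RPKM in △3βG△ncw-1 and 163 RPKM in △3βG, 39.6-fold lower (34.8 to 45.2). Its neighbour gcy-1 (NCU04923), a glycerol dehydrogenase gene, had 11.2 RPKM in △3βG△ncw-1 and 92.2 RPKM in △3βG, 8.25-fold lower (7.44 to 9.16). The gene with the related symbol, gcy-3 (NCU04510), had 331 RPKM in △3βG△ncw-1 and 78.6 RPKM in △3βG and so lay in the other direction. The osmotic stress list, which held cut-1 and gcy-3 but not gcy-1, had 1 member among 7 genes that reached 10 RPKM, with 2 at least 2-fold higher and 4 neither. Its median log2 ratio was −0.17. Over all genes that reached 10 RPKM, 2.12% were members and 8.08% at least 2-fold higher, with a median of −0.32. The osmosensing kinase genes were not among the members: os-2 (NCU07024) had 365 RPKM in △3βG△ncw-1 and 165 RPKM in △3βG, and os-1, os-4 and os-5 were within 2-fold.

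In carbon metabolism the members encode enzymes used when sugar is short, a repressor and a starch enzyme. The phosphoenolpyruvate carboxykinase gene acu-6 (NCU09873, also con-3 and pck-1) had 56.0 RPKM in △3βG△ncw-1 and 356 RPKM in △3βG, 6.35-fold lower (6.10 to 6.61). Malate synthase, of the glyoxylate cycle, is encoded by acu-9 (NCU10007), which had 52.8 RPKM in △3βG△ncw-1 and 218 RPKM in △3βG, 4.13-fold lower (3.96 to 4.31), next to last by log2 ratio. Of 5 genes of gluconeogenesis and the glyoxylate cycle, 2 were members, 4 were at least 2-fold lower and 1 was at least 2-fold higher, with a median log2 ratio of −1.90. Over all genes that reached 10 RPKM, 2.12% were members, 11.1% at least 2-fold lower and 8.08% at least 2-fold higher, with a median of −0.32. The fructose bisphosphatase gene fbp-1 (NCU04797) came close to the limit, with 26.7 RPKM in △3βG△ncw-1 and 103 RPKM in △3βG. The isocitrate lyase gene acu-3 (NCU04230) had 12.5 RPKM in △3βG△ncw-1 and 39.1 RPKM in △3βG. Other acu genes were not lower: acu-15 (NCU06656) and acu-8 (NCU09770) had 211 and 37.0 RPKM in △3βG△ncw-1 and 163 and 30.99 RPKM in △3βG.

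The carbon catabolite repressor gene cre-1 (NCU08807) had 11.04 RPKM in △3βG△ncw-1 and 66.3 RPKM in △3βG, 6.01-fold lower (5.28 to 6.85). The glucoamylase gene gla-1 (NCU01517) had 39.5 RPKM in △3βG△ncw-1 and 186 RPKM in △3βG, 4.70-fold lower (4.51 to 4.90), whereas gla-2 (NCU02583) had 65.2 RPKM in △3βG△ncw-1 and 40.9 RPKM in △3βG. On the starch degradation list gla-1 was the 1 member among 4 genes, with 2 at least 2-fold higher and a median log2 ratio of 1.069. Over all genes that reached 10 RPKM, 2.12% were members and 8.08% at least 2-fold higher, with a median of −0.32. On the sugar transporter list the 1 member was NCU01633, at 7.83 RPKM in △3βG△ncw-1 and 42.6 RPKM in △3βG. Of the 13 transporter genes above the minimum, 9 were at least 2-fold higher, with a median log2 ratio of 1.80. Many genes of that list have no symbol in the reference table, and their role is taken from general knowledge of the species.

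The lists without a member besides eas were those of light response and carotenoids, clock-controlled genes, glycogen and trehalose, and nitrogen, phosphorus and sulphur. Of 13 light response genes 2 were at least 2-fold lower, 3 at least 2-fold higher and 8 neither, with a median log2 ratio of 0.17. The lower pair was the opsin gene nop-1 (NCU10055), with 32.6 RPKM in △3βG△ncw-1 and 103 RPKM in △3βG, and al-3 (NCU01427), with 99.1 RPKM in △3βG△ncw-1 and 235 RPKM in △3βG. Of 9 clock genes eas was the 1 lower gene, 5 were at least 2-fold higher, and the median was 1.30. Of 8 glycogen and trehalose genes 0 were at least 2-fold lower and 5 at least 2-fold higher, with a median of 1.10. Of 6 genes for nitrogen, phosphorus and sulphur uptake 0 were lower and 1 was higher at 2-fold, with a median of 0.016. In the whole set of 5988 genes above the minimum, the lower share at 2-fold was 11.1% and the higher share 8.08%. The median log2 ratio of that set was −0.32.

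The last 4 members with symbols have unlike roles. The gene parp (NCU08852, also npo), which encodes a poly(ADP-ribose) polymerase, had 4.596 RPKM in △3βG△ncw-1 and 116 RPKM in △3βG, 25.1-fold lower (22.1 to 28.7). The chitinase gene chit-1 (NCU02184) had 5.41 RPKM in △3βG△ncw-1 and 126 RPKM in △3βG, 23.3-fold lower (21.5 to 25.3). The family 47 glycoside hydrolase gene gh47-5 (NCU07067) had 38.5 RPKM in △3βG△ncw-1 and 184 RPKM in △3βG, 4.79-fold lower (4.54 to 5.05). It was the 1 lower gene of its symbol family: gh47-3 (NCU01059) had 59.2 RPKM in △3βG△ncw-1 and 13.1 RPKM in △3βG, and gh47-1, gh47-4 and gh47-6 were within 2-fold. The gene pyr-4 (NCU03488), of pyrimidine synthesis, had 73.4 RPKM in △3βG△ncw-1 and 310 RPKM in △3βG, 4.22-fold lower (4.06 to 4.39). Other genes that share the symbols ada and sah were not members. The levels of ada-1 to ada-5, sah-2 and sah-3 were all within 2-fold, with ada-4 below 10 RPKM in both libraries.

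Among the members without a symbol, 8 were of the 12 with the lowest log2 ratios. The gene NCU09734 had 8.54 RPKM in △3βG△ncw-1 and 1438 RPKM in △3βG, 168-fold lower (152 to 187), and only eas had a higher level in △3βG among the members. NCU03011 had 0.542 RPKM in △3βG△ncw-1, from 23 reads, and 223 RPKM in △3βG, from 9688 reads. By the ratio of RPKM it was the lowest of all members, at 411-fold (274 to 649). NCU00848 had 3.06 RPKM in △3βG△ncw-1 and 353 RPKM in △3βG, 115-fold lower (97.8 to 137). NCU00365 had 20.9 RPKM in △3βG△ncw-1 and 601 RPKM in △3βG, 28.8-fold lower (24.8 to 33.5), and its gene model of 438 bases is short. The other 4 of these genes, NCU09210, NCU05858, NCU03451 and NCU16512, each lay beside another member and are given with their neighbours.

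The 9 members with the highest △3βG levels after eas, NCU09734 and app were between 4.25-fold and 115-fold lower, 5 of them less than 8-fold. Those at 8-fold or more were NCU00365 and NCU00848, given above, and NCU09274 and NCU03451, given with their neighbours. NCU06986 had 159 RPKM in △3βG△ncw-1 and 674 RPKM in △3βG, 4.25-fold lower (4.17 to 4.33). NCU00999 had 117 RPKM in △3βG△ncw-1 and 571 RPKM in △3βG, 4.89-fold lower (4.70 to 5.10). Levels between 300 and 1000 RPKM in △3βG were reached by 14 members in all, among them NCU07962 (88.0 RPKM in △3βG△ncw-1 and 464 in △3βG) and NCU06255 (75.2 RPKM in △3βG△ncw-1 and 372 in △3βG). The reference spans of NCU06986, NCU07962 and NCU06255 each overlap a neighbouring gene, as do those of 20 members in all (15.7%) and of 25.7% of the genes that reached 10 RPKM. At the other end, 22 members had less than 20 RPKM in △3βG, and 6 had less than 1 RPKM in △3βG△ncw-1. Of these, NCU00850 had 0.424 RPKM in △3βG△ncw-1, from 7 reads, and 19.4 RPKM in △3βG, from 328 reads, and its fold of 45.7 had a wide interval of 21.9 to 115.

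Some members lay beside each other on the chromosomes. Of the 127 members 28 (22.05%) had another member as the next gene in the reference order, beside 2.13% of the 5860 other genes that reached 10 RPKM and have a place in that order. Without neighbours whose spans overlap, the counts were 26 members (20.5%) and 1.93% of other genes. Position was not used by the rule, and no test was made of this share. The 28 members formed 12 runs, of which 9 were pairs, and no run was longer than 4 genes.

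The longest run, on chromosome IV, held ada-6 and pks-3. Next to them were NCU04862, with 13.4 RPKM in △3βG△ncw-1 and 92.6 RPKM in △3βG, and NCU04861, with 1.72 RPKM in △3βG△ncw-1 and 12.4 RPKM in △3βG. The log2 ratios of the 4 genes in order were −2.30, −2.70, −3.91 and −5.34, with ada-6 at the end. The gene beyond ada-6, NCU04867, was below the minimum, and was listed at 0 in △3βG△ncw-1 with 4.14 RPKM in △3βG.

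On chromosome VII there were runs of 3 genes. NCU09274, NCU09273 and NCU09272 had 33.9, 23.6 and 24.5 RPKM in △3βG△ncw-1, against 501, 256 and 101 RPKM in △3βG, and the last of them was the member nearest to the limit. NCU05818, NCU05819 and NCU05820 had 2.71, 25.01 and 11.4 RPKM in △3βG△ncw-1, against 18.3, 133 and 50.02 RPKM in △3βG. The folds thus differed within the first of these runs and were close to each other in the other one.

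Among the pairs, NCU05858 had 1.56 RPKM in △3βG△ncw-1 and 119 RPKM in △3βG, 75.9-fold lower (63.5 to 91.5). Its neighbour NCU05859 had 0.962 RPKM in △3βG△ncw-1 and 40.3 RPKM in △3βG, 41.9-fold lower (31.3 to 57.4). Close by, NCU05855 was in the other direction, with 128 RPKM in △3βG△ncw-1 and 6.65 RPKM in △3βG. NCU09210 and NCU09209 had 2.40 and 4.18 RPKM in △3βG△ncw-1, against 165 and 42.8 RPKM in △3βG. The short genes NCU03451 and NCU16512 had 10.6 and 7.31 RPKM in △3βG△ncw-1, against 385 and 256 RPKM in △3βG, nearly the same fold of 36.4 and 35.0. NCU01790 and NCU16558 had 6.48 and 17.8 RPKM in △3βG△ncw-1, against 124 and 139 RPKM in △3βG. The gene beside app, NCU04532, had 0.737 RPKM in △3βG△ncw-1 and 18.7 RPKM in △3βG. The members of the remaining pairs, NCU02890 with NCU16477, NCU06811 with NCU06810 and NCU16875 with NCU08842, were between 5.31-fold and 8.28-fold lower.

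**Figure D5:**
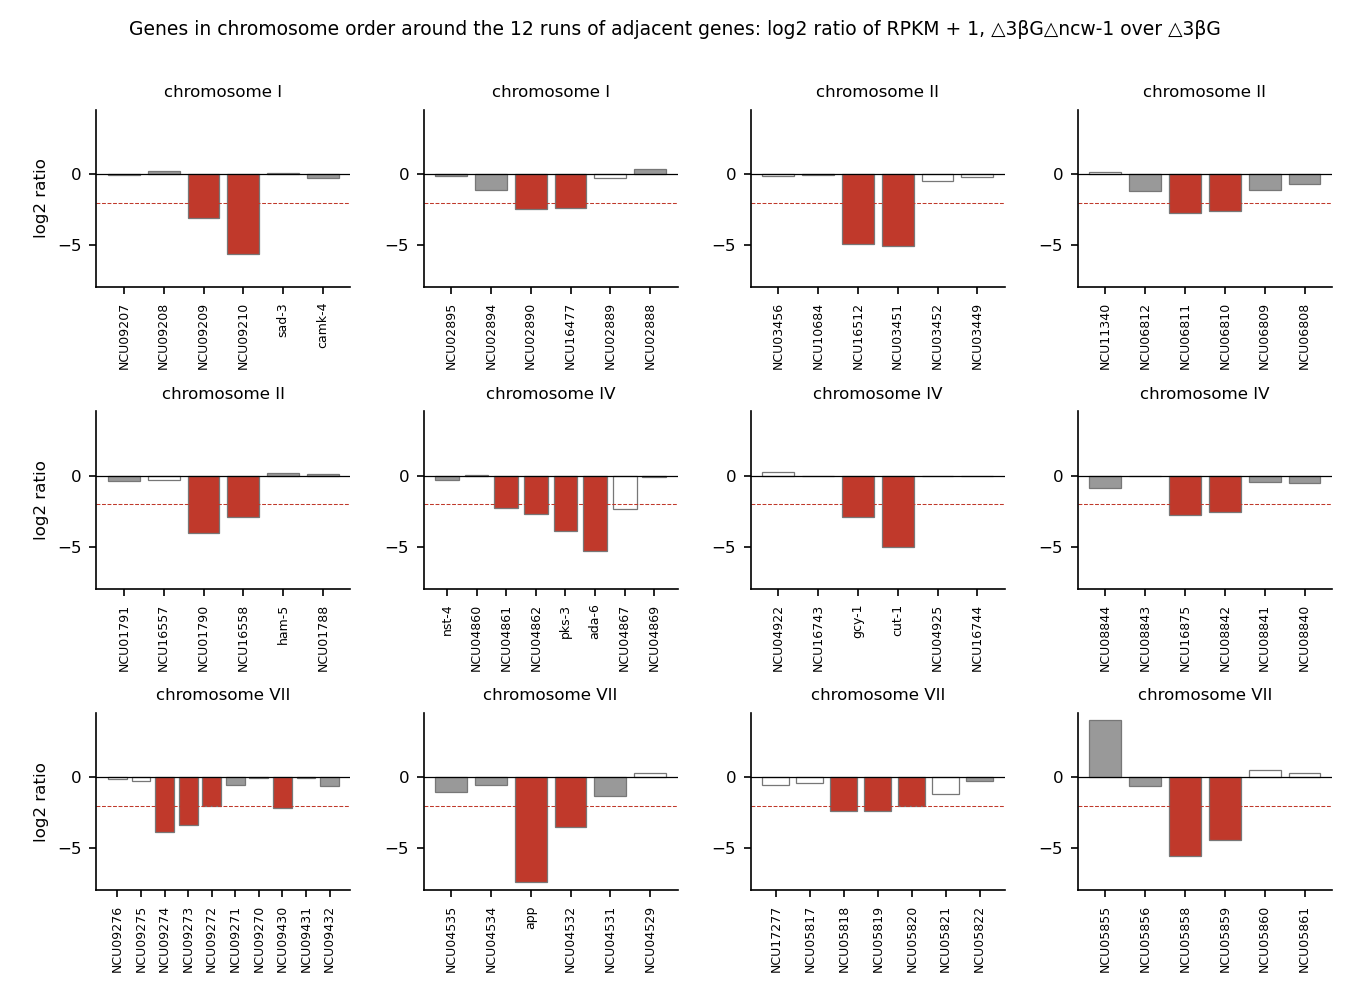
Log2 ratio of RPKM + 1, △3βG△ncw-1 over △3βG (y axis), for genes in chromosome order (x axis) around the 12 runs of adjacent members, 1 run per panel with 2 genes on each side (the panel with NCU09274 runs on past NCU09430, a member near that run). Red bars are members, grey bars other genes that reached 10 RPKM and open bars genes below it; the dashed line is the limit of −2, and the tall upward bar in the last panel is NCU05855.

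The genes on either side of cut-1 and gcy-1, NCU04925 and NCU16743, were listed at 0 in both libraries. Of 125 genes next to a member that reached 10 RPKM and were not members themselves, 18 (14.4%) were at least 2-fold lower, beside 9.05% of the 5735 genes farther away. Their median log2 ratio was −0.39, beside −0.31 for the genes farther away. Without neighbours whose spans overlap, 15 of 113 genes next to a member (13.3%) were at least 2-fold lower, with a median of −0.37. With 1 other gene between them, eas and NCU08455 were both members, and NCU08455 had 13.8 RPKM in △3βG△ncw-1 and 181 RPKM in △3βG, 13.1-fold lower (11.3 to 15.2). The gene between them, NCU08456, was below the minimum, at 2.83 RPKM in △3βG△ncw-1 and 4.38 RPKM in △3βG. NCU00848 and NCU00850 were likewise separated by NCU00849, with 1.61 RPKM in △3βG△ncw-1 and 6.33 RPKM in △3βG.

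The members were spread over all 7 chromosomes, as 25 on I, 15 on II, 8 on III, 26 on IV, 21 on V, 10 on VI and 22 on VII. As a share of the genes that reached 10 RPKM these were lowest on III, at 1.04%, and highest on VII, at 3.75%. The median gene model had 2063 bases over the 111 members with a single solution and 2252 bases over the 5486 such genes that reached 10 RPKM. The 16 members with several possible lengths were left out here. Models under 1000 bases made up 12.6% of these members and 6.07% of these genes.

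The limits of the rule fell within a continuous range. Just inside the ratio limit were NCU09272, acu-9 and NCU03098, with log2 ratios of −2.003, −2.03 and −2.03, and just outside were NCU16715, NCU08905 and NCU02130, with −1.99, −1.98 and −1.98. Just inside the minimum were NCU09372, NCU05609 and NCU02071, with 1.17, 1.44 and 1.89 RPKM in △3βG△ncw-1 and 10.7, 11.5 and 12.03 RPKM in △3βG. Just outside it were NCU06574, NCU05093 and NCU03861, with 1.34, 0.0506 and 0.432 RPKM in △3βG△ncw-1 and 8.88, 8.08 and 7.93 RPKM in △3βG.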

How the data were processed

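RNA was sequenced in 1 library per genotype. Mycelia were filtered and frozen, and RNA was taken with TRIzol and a column, per the labels' protocols. The deposited values are the authors' RPKM, with a column for each library, per the file headers. TopHat2 2.0.8b, DESeq 1.5.1 and HTSeq 0.5.4p2 are named in the submitters' processing notes without saying what each did. Build, annotation and strand setting were not given in the sources used here. Overlapping, antisense and near-identical genes may therefore share reads, and no coordinates are printed.

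Columns were matched to libraries by sample identifier, and 0 value columns were left unused. Of 9730 genes, 9729 matched the reference gene table (NC12), which gave 1118 symbols, gene order and spans. Genes were compared by log2 ratios of RPKM + 1, a measure that understates the change of low genes; folds are ratios of RPKM. With 1 library per genotype there was no test. Whole reads were recovered from the RPKM, using model lengths of at least 50% of the span and an error of at most 1e-06 reads plus 1e-09 of their number. All 9264 matched genes above 0 had a solution, 8345 of them a single one, including 111 of the 127 members; otherwise the smallest was used. The steps were tested on simulated data. Reads are not independent molecules, so intervals cover counting error only.

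Members and lists were chosen with earlier results of these data known. Genes named were the 12 lowest log2 ratios, the 12 highest levels in △3βG, members with symbols, list members, adjacent members and genes at the limits of the rule; relatives by symbol, flanking genes and other examples were named after their values were seen. Sequence features and members with similar proteins were not analysed here. Python 3.11.15, pandas 2.3.3, NumPy 2.4.6 and SciPy 1.17.1 were used.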

Additional observations from a re-analysis of the deposited data

How the results depend on the processing

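All 127 members kept a negative log2 ratio under 7 alternatives, as did the 80 that a minimum of 50 RPKM left. The rule fixed this sign in advance, since no alternative was large enough to reverse a log2 ratio of −2. With 5 RPKM added in place of 1, 77 genes met the rule, and with a minimum of 50 RPKM 80 did. The count was between 90 and 150 under the other alternatives. Median centring and trimmed mean scaling raise every log2 ratio, so they could take members only. Of the 127 members, median centring left 90 at −2 or less, trimmed mean scaling 94 and 5 RPKM added 77, and the others lay at or below −1.68, −1.69 and −1.26 in that order. The members' share of all RPKM was 0.421% in △3βG△ncw-1 and 3.68% in △3βG without eas. As a share of recovered reads it was 0.649% and 10.2% in △3βG△ncw-1 and △3βG with the smallest lengths, and 0.760% and 13.7% with the largest, which were chosen after seeing the data. A 50 RPKM minimum, which takes fewer genes, left 3 conidiation genes at least 2-fold lower, 1 sexual development, 1 light response, 3 clock and 1 starch gene at least 2-fold higher, and 0 sugar transporter genes lower at 2-fold or 4-fold. With 0.1 RPKM added, and with RPKM scaled to equal sums, 2 sexual development genes were 4-fold lower. With 5 RPKM added, 1 gluconeogenesis gene was 4-fold lower and 0 were 2-fold higher, and 0 transporter genes were 4-fold lower. Either of median centring and trimmed mean scaling gave 1 light response gene 2-fold lower, 1 gluconeogenesis gene 4-fold lower, 0 starch genes 4-fold lower and 2 nutrient acquisition genes 2-fold higher; median centring also left 0 transporter genes 4-fold lower. Where no other reason is given the cause was not tested. Within 3 genes, 35 members (27.6%) had another member, beside 6.45% of the 5860 other genes with a place in the order. No paired analysis was possible because each genotype has 1 library. Sequence alternatives were not run.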
